A study of Mus musculus with 9 samples.

Results

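The subject here is a set of 10 genes of glycolysis and of HIF-1 signalling, followed through RAW264.7 cells, a mouse macrophage cell line. The genes are Hif1a, Slc2a1, Hk2, Pfkl, Pfkp, Pfkfb3, Aldoa, Pkm, Ldha and Slc16a3, and they were taken by symbol. The rule itself uses no measured value, but the set was chosen with earlier results of these data known. The symbols matched 11 rows of the 54532 in the expression table, because Aldoa stands there under 2 gene identifiers. All 11 rows were among the 11585 that passed the filter on low values and were tested. Poly-A RNA was sequenced from 9 libraries, 3 in each of 3 groups. Control cells were untreated. LPS cells were kept for 6 h with lipopolysaccharide at 1 μg/ml, a bacterial cell wall component that activates macrophages. LPS + G-CDs cells received the same LPS for the same time together with 400 μg/ml of G-CDs, carbon dots that the study prepared from roasted Glycyrrhiza. All 9 libraries carry the genotype label WT and come from the one cell line, whose tissue is labelled ascites. The treatment label of the LPS + G-CDs libraries names LPS alone, so G-CDs were assigned from the sample titles and the series design. No group received G-CDs without LPS. The labels number the libraries of a group but do not say whether they came from separate cultures, so every p-value below measures the spread between these libraries only.

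Glycolysis turns glucose into pyruvate in the cytosol. Glucose enters through transporters such as SLC2A1 (GLUT1), is trapped by a hexokinase, and is committed to the pathway by phosphofructokinase, whose activity is set in part by fructose 2,6-bisphosphate, the product of the PFKFB enzymes. Aldolase and pyruvate kinase carry out later steps, lactate dehydrogenase reduces pyruvate to lactate, and the transporter SLC16A3 (MCT4) exports lactate. HIF-1α, encoded by Hif1a, is the oxygen-regulated subunit of the transcription factor HIF-1, which binds a short DNA core in hypoxia response elements of many glycolytic genes. Macrophages activated with LPS are known for raised glycolysis and for HIF-1α that accumulates even when oxygen is present.

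The bases upstream of the transcription starts are shown for 5 of the genes, the 4 with the largest fitted rises from control to LPS and Ldha, whose window held the most matches and whose level is described further on as a contrast. The sequences are RefSeq promoter windows of the mouse build GRCm38.p6, written 5′ to 3′ along the gene's strand, and capitals mark every ACGTG or GCGTG, the hypoxia response core, on either strand. Where CACGTG (an E-box) occurs, it holds ACGTG on both strands and counts as 2 overlapping matches. The windows are chr12:73907617-73907866 (+ strand) for Hif1a, chr4:119108495-119108714 (+) for Slc2a1, chr6:82774455-82774704 (-) for Hk2, chr2:11502091-11502340 (-) for Pfkfb3 and chr7:46845554-46845803 (+) for Ldha. Of the 2 listed starts of Pfkfb3 and of Ldha the one with more matches is shown, and the Slc2a1 window stops 30 bases short of the RefSeq start.
Hif1a: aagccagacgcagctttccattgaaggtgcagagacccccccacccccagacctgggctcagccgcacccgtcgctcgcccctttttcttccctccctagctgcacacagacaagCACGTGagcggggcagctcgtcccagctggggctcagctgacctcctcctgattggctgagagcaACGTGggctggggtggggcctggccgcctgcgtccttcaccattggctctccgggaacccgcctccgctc
Slc2a1: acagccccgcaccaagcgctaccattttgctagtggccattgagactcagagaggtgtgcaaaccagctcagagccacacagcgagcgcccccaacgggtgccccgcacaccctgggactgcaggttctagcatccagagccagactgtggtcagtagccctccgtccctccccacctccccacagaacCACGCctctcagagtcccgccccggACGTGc
Hk2: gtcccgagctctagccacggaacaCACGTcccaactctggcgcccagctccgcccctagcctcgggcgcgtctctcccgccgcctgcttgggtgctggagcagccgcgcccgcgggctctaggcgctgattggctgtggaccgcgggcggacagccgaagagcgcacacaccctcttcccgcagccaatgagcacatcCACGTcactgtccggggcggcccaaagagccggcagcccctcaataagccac
Pfkfb3: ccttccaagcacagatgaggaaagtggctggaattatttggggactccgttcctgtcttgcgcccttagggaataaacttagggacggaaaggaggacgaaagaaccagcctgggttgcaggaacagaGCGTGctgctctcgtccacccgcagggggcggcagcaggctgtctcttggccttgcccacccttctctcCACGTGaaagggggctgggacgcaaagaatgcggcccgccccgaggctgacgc
Ldha: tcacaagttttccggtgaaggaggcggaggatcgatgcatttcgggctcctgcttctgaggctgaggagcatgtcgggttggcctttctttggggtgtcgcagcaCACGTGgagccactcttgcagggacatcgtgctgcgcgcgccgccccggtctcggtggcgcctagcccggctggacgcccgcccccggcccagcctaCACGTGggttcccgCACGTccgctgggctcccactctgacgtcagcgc

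RefSeq windows were found for 10 of 10 genes, with 15 listed starts in all. At least 1 of the cores stood in the 250 bases upstream of a start in all 10 genes, against 41.5% of the 27025 genes of the promoter table. The narrower core ACGTG was found for 8 of the 10, all but Pfkl and Pfkp, against 18.5% of genes, and the E-box for 3, Hif1a, Ldha and Pfkfb3, against 6.9%. These windows are rich in G and C, from 50.4% to 73.6%. Among windows with at least 60% GC, 11 of 12 of these genes' windows held a core against 63.8% of all 9178. The 2 Aldoa windows among the 11 overlap and hold the same match. Ldha had the most matches in 1 window, with 5, and 2 of the 15 windows had none, one of Pkm and one of Aldoa. A match describes the letters only, and binding of HIF-1 was not measured here.

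Depth was similar over the 9 libraries, at 14752400 to 17312255 reads on genes, recovered from the deposited FPKM values (fragments per kilobase of gene, scaled to library size). FPKM is a level per length, so levels of different genes are compared on that scale. Of 10 macrophage markers, 9 passed the filter and Mertk was listed at 0 in all libraries. Summed FPKM of the 10 markers was 2663 to 3660 in control, 3872 to 4089 in LPS and 3248 to 5342 in LPS + G-CDs. Much of that sum was Cd14, at 387 to 493 FPKM in control and 1945 to 3412 in the libraries with LPS, and the markers went both ways. With LPS 4 rose (Cd14, Adgre1, Ptprc and Itgam) and 2 fell (Csf1r and Lyz2) of the 9 tested, beside 15.8% and 15.6% of all tested rows, and with G-CDs Adgre1, Ptprc and Itgam lay below all LPS libraries without passing, at limma adjusted p of 0.13, 0.30 and 0.32. Their part in the results below was not tested. Of 15 markers of other cell types 14 stayed under 1 FPKM in every library and 3 were at 0 throughout, with sums of 0.829 to 3.29. The exception was S100a8, known from neutrophils and from activated myeloid cells, at 0.730, 0.417 and 0.198 FPKM in LPS and 0.797, 1.13 and 2.15 in LPS + G-CDs, too low to be tested. Cd68 was 86.8 FPKM in control replicate 1 against 324 and 418 in the other controls. The spread within groups was unequal. The median SD over tested genes, on the log2(FPKM + 1) scale, was 0.244 in control, 0.087 in LPS and 0.259 in LPS + G-CDs.

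The first comparison asks what LPS alone did to these genes. Slc2a1, Hk2, Pfkp and Pfkfb3 rose with LPS, and so did Hif1a. Aldoa, Pkm, Ldha, Pfkl and Slc16a3 did not pass the test. In a limma fit over all tested genes, 5 of the 11 rows were higher in LPS than in control at a Benjamini-Hochberg adjusted p under 0.05, against 15.8% of all tested rows. None of the 11 was lower, against 15.6% of all tested rows. At an unadjusted p under 0.05, 6 of the 11 were higher and 1 lower, beside 21.1% and 20.8% of all tested rows. The lower one was the second Aldoa row, which reached 1 FPKM in 3 libraries only through the controls and so entered the test through the group where it was high. A voom fit on the recovered reads gave the same counts, 5 and 0. It used the same library sizes as the FPKM values, so it is no separate check on the scaling. A call at an unadjusted limma p under 0.01 with a change over 1.5-fold gave 4 and 0, beside 11.9% and 11.2% of all tested rows. The median log2 fold change of the 11 rows was 0.44, beside 0.0165 over all tested genes. In such bulk samples, a change in the number of cells carrying a transcript and a change in the amount per cell cannot be told apart.

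**Figure D1:**
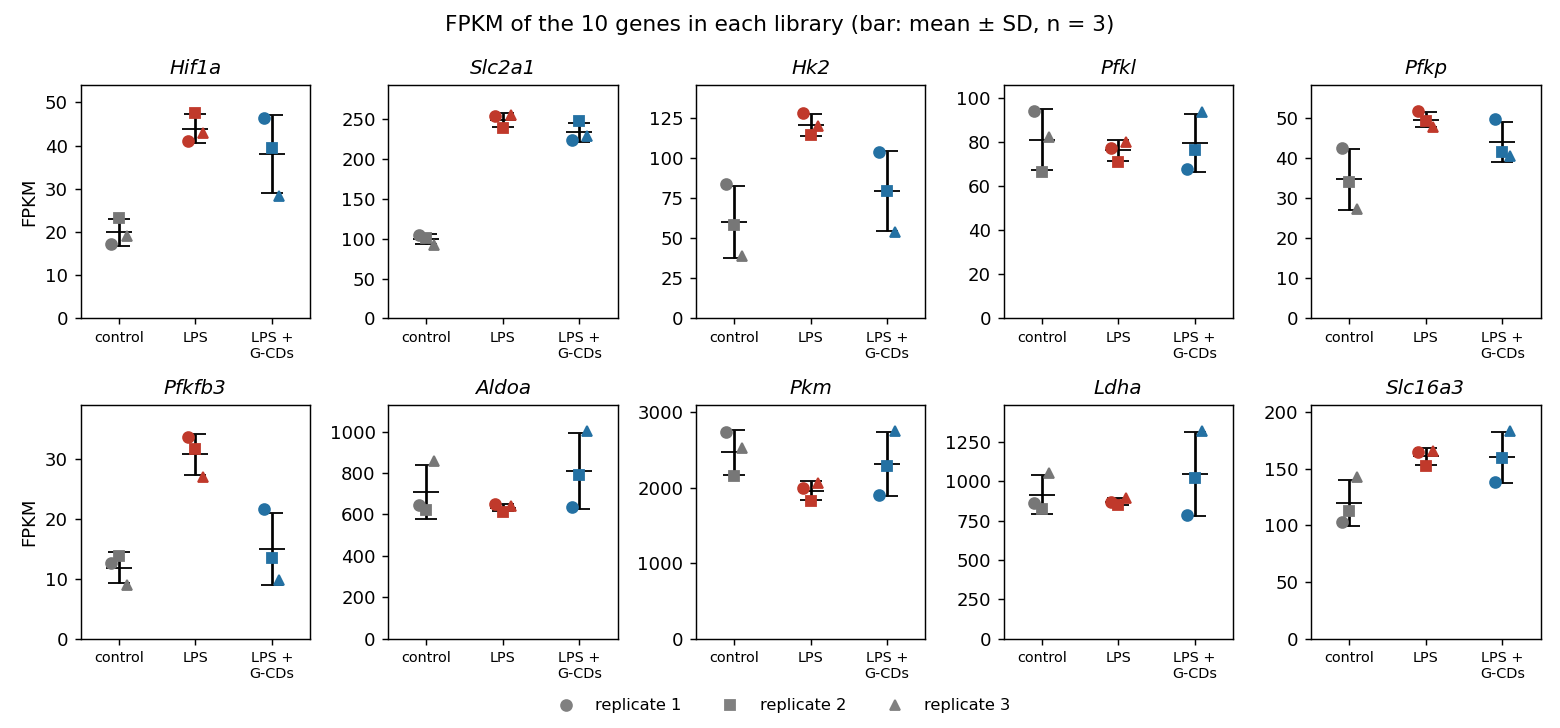
FPKM (y axis, linear from 0, a separate scale for each gene) of the 10 genes in the 9 libraries; marker shape gives the replicate, the long dash the group mean and the capped bar the SD over 3 libraries. Hif1a, Slc2a1, Hk2, Pfkp and Pfkfb3 are higher in every LPS library than in every control, while Pfkl, Aldoa and Ldha overlap.

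Hif1a (ENSMUSG00000021109, chr12:73901375-73947530, + strand, GRCm38) was at 17.3, 23.4 and 19.1 FPKM in the 3 controls, at 41.1, 47.6 and 42.9 in LPS and at 46.4, 39.4 and 28.3 in LPS + G-CDs. Every library with LPS lay above every control, and the lowest of them was LPS + G-CDs replicate 3. The LPS mean of 43.8 ± 3.36 FPKM (SD, n = 3) against 19.9 ± 3.12 was a log2 fold change of 1.11 ± 0.19 (SE), limma adjusted p = 0.0022. Of the HIF alpha subunits Hif1a was nearly the whole signal, at 99.4% or more of the summed FPKM of Hif1a, Hif3a and Epas1 in every library.

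Slc2a1 encodes GLUT1, a facilitative glucose transporter (ENSMUSG00000028645, chr4:119108711-119137983, +). It was at 105, 101 and 92.0 FPKM in control, at 253, 238 and 254 in LPS and at 224, 247 and 228 in LPS + G-CDs. The control libraries and the libraries with LPS stood far apart, and the spread within each group was small, with an SD of 0.053 to 0.095 on the log2 scale. LPS raised it by 1.32 ± 0.12 on the log2 scale (limma adjusted p = 6.3e-05), 2.50-fold between group means.

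Hk2 encodes the hexokinase isoform associated with high glycolytic flux (ENSMUSG00000000628, chr6:82725025-82774454, -). Its control libraries were spread widely, at 83.8, 58.3 and 39.0 FPKM, whereas those with LPS alone lay close together at 128, 115 and 119.9. LPS + G-CDs libraries, at 104, 79.6 and 54.2, fell below all LPS libraries and overlapped the controls. The difference between LPS and control was 1.06 ± 0.30 on the log2 scale, limma adjusted p = 0.026, and in 8 of 23 alternative settings it no longer passed, with adjusted p up to 0.14. Among those were the fits without control replicate 2, without control replicate 3 and without any 1 of the LPS libraries, with adjusted p from 0.058 to 0.082.

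At the phosphofructokinase step the isoforms differed. Pfkl, the liver-type subunit (ENSMUSG00000020277, chr10:77986947-78010083, -), was at 94.3, 66.7 and 82.3 FPKM in control and at 77.4, 71.2 and 80.4 in LPS, which overlap. Its difference was -0.07 on the log2 scale with a 95% interval of -0.46 to 0.31 (limma adjusted p = 0.77). Pfkp, the platelet-type subunit (ENSMUSG00000021196, chr13:6579768-6648777, -), was at 42.7, 34.1 and 27.3 in control and at 51.8, 49.4 and 47.9 in LPS. The LPS libraries were all higher, by 0.53 ± 0.17, limma adjusted p = 0.040. Pfkp has the longest gene model of the set, with 13401 exonic bases, and its difference was 0.29 (adjusted p = 0.11) once a trend on gene length had been removed from each library. In 12 of 23 alternative settings Pfkp no longer passed, among them the fits without control replicate 2 or 3, without any 1 LPS library and without LPS + G-CDs replicate 2, with adjusted p from 0.067 to 0.13.

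Pfkfb3 encodes the bifunctional enzyme that mainly makes fructose 2,6-bisphosphate, the activator of phosphofructokinase (ENSMUSG00000026773, chr2:11471433-11554077, -). It was at 12.7, 13.9 and 8.96 FPKM in control, at 33.7, 31.7 and 27.0 in LPS and at 21.6, 13.5 and 9.74 in LPS + G-CDs. All LPS libraries stood above all others, and LPS + G-CDs replicates 2 and 3 lay within the control range. Against control it rose in LPS by 1.32 ± 0.26 on the log2 scale (limma adjusted p = 0.0051), a 2.60-fold difference of means and the largest fitted rise among the 10 genes. The calls for Pfkfb3, Slc2a1 and Hif1a were kept in all 23 alternative settings, with fold changes of 1.07 to 1.44, 1.05 to 1.47 and 0.85 to 1.22.

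Aldoa, Ldha and Pkm were the most abundant of the set and did not pass. Aldoa, fructose-bisphosphate aldolase A (ENSMUSG00000030695, chr7:126795234-126800751, -), was at 645, 621 and 859 FPKM in control and at 648, 612 and 639 in LPS. Ldha, the lactate dehydrogenase subunit that favours lactate formation (ENSMUSG00000063229, chr7:46841475-46855627, +), was at 862, 825 and 1056 in control and at 868, 848 and 897 in LPS. Both overlapped between groups, with log2 differences of -0.15 (95% interval -0.63 to 0.34, limma adjusted p = 0.65) and -0.06 (-0.56 to 0.44, limma adjusted p = 0.86). The Ldha promoter printed above carried the most matches to the hypoxia response core in the set.

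Pkm, pyruvate kinase of muscle and of most dividing cells (ENSMUSG00000032294, chr9:59656368-59679375, +), was the highest of the 10 in every library. It was at 2729, 2147 and 2526.5 FPKM in control and at 1994, 1818 and 2058 in LPS. Every LPS library was below every control, by 0.33 on the log2 scale, and this missed the threshold at a limma adjusted p of 0.29. Whether these abundant genes count as lower rests on the scaling between libraries. With FPKM rescaled to a common sum per library (TPM), Pkm was at -0.60 (adjusted p = 0.0067) and Aldoa at -0.42 (adjusted p = 0.025), while the median of all genes moved to -0.21. With quantile scaling Pkm was at -1.14, Ldha at -0.65 and Aldoa at -0.56, all past the threshold. Pkm transcripts cannot be split here into the M1 and M2 isoforms, since values are per gene. Of the 50-base words of its longest transcript, 34.4% also occur in 8 other annotated genes, whose summed mean level was 126 FPKM.

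Slc16a3 encodes MCT4, a lactate exporter (ENSMUSG00000025161, chr11:120948480-120960868, +). It was at 103, 113 and 143 FPKM in control, at 164, 152 and 166 in LPS and at 138, 159 and 183 in LPS + G-CDs. The LPS libraries were all above the controls, by 0.44 ± 0.17 on the log2 scale, which just missed the threshold (limma adjusted p = 0.075). With the replicate number as a block over all 9 libraries the limma adjusted p was 0.046, although the labels do not say what a number marks. Without control replicate 3 the difference was 0.57 (adjusted p = 0.035). Without LPS + G-CDs replicate 3, which enters through the shared spread, the adjusted p was 0.050. A second row under the symbol Aldoa (ENSMUSG00000114515, chr7:126800790-126809108, -, 799 exonic bases) lies upstream of the main gene and was low, at 8.41, 2.43 and 1.41 FPKM in control and 1.36, 0.907 and 0.603 in LPS. Its libraries did not overlap, which is given as a description only because the controls alone brought it past the filter, and control replicate 1 carried most of the control mean of 4.08 ± 3.78 FPKM.

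**Figure D2:**
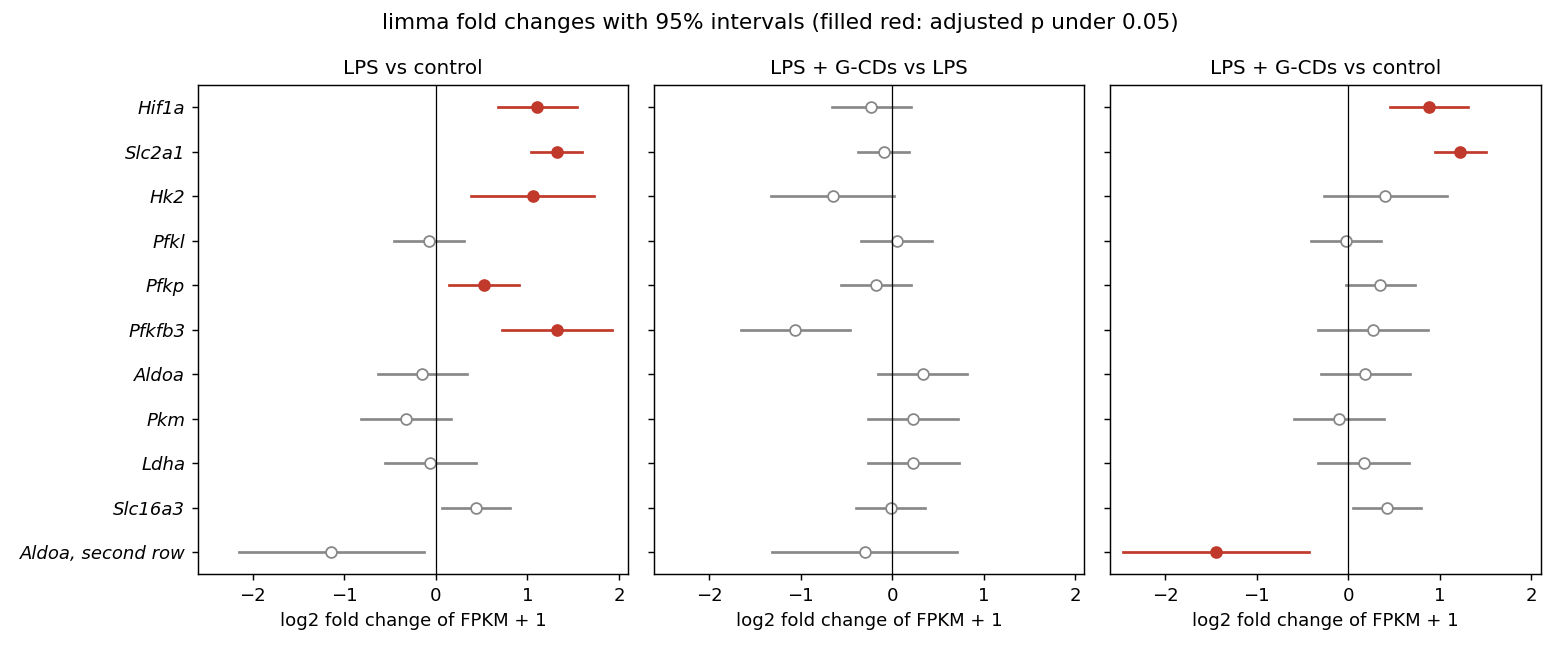
Fitted log2 fold changes of FPKM + 1 (x axis) for the 11 rows (y axis) in the 3 comparisons, with 95% intervals from limma as lines; red filled points passed an adjusted p of 0.05. LPS against control has 5 red points, all to the right of 0; LPS + G-CDs against LPS has none, and Pfkfb3 lies farthest from 0 there, at -1.06.

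The second comparison asks whether G-CDs changed the LPS response, with LPS present in both groups. None of the 11 rows passed the test in either direction by limma, and none by voom on the recovered reads. The background was low as well, with 0.25% of tested rows called higher in LPS + G-CDs and 0.242% lower. At an unadjusted p under 0.05 stood 1 row, Pfkfb3, which was lower, beside 7.19% of all tested rows higher and 8.04% lower. The median over the 11 rows was -0.092 on the log2 scale, beside 0.0174 over all tested genes. The genes nevertheless differed in how precisely they were bounded.

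For Pfkfb3, the mean was 15.0 ± 6.07 FPKM with G-CDs against 30.8 ± 3.41 with LPS alone, and the groups did not overlap. The log2 difference was -1.06 ± 0.26, with a 95% interval of -1.66 to -0.46, an unadjusted limma p of 0.00328 and an adjusted p of 0.17. It ranked 191 among the 11585 rows by size of change. Without LPS + G-CDs replicate 1, the library nearest to the LPS group, the difference was -1.34 and the adjusted p 0.030. By an unadjusted limma p under 0.01 with a change over 1.5-fold Pfkfb3 was called lower, as 1 of the 11 rows, beside 1.24% of all tested rows. Over the 23 alternative settings the difference stayed between -1.34 and -0.80, and the adjusted p between 0.030 and 0.52.

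Hk2 followed with 79.3 ± 24.9 FPKM against 121 ± 6.77, a log2 difference of -0.65 with an interval of -1.32 to 0.03 (limma adjusted p = 0.33). Its groups did not overlap either, although LPS + G-CDs replicate 1, at 104, came close to the lowest LPS library, at 115. Without that library the difference was -0.87 and without LPS + G-CDs replicate 3 it was -0.40. For Slc2a1 the difference was small and the interval narrow, at -0.09 (-0.37 to 0.19). For Hif1a it was -0.23 (-0.66 to 0.20) and for Pfkp -0.18 (-0.56 to 0.20), and the libraries overlapped for all 3. The Hif1a value was -0.38 without LPS + G-CDs replicate 1, -0.033 without replicate 3 and -0.11 with length and GC trends removed.

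Aldoa, Ldha and Pkm had fitted values above 0 that did not pass. Aldoa was at 638, 792 and 1004 FPKM in LPS + G-CDs, Ldha at 789, 1022 and 1323, and Pkm at 1897, 2282 and 2747. Each group reached from below the LPS libraries, or within their range, to far above them. The log2 differences against LPS were 0.33 (-0.15 to 0.82), 0.23 (-0.27 to 0.73) and 0.22 (-0.27 to 0.72), with limma adjusted p values of 0.39, 0.53 and 0.54. They were 0.17, 0.044 and 0.091 without LPS + G-CDs replicate 3, and Ldha and Pkm were at 0.42 and 0.36 without replicate 1. Pfkl, at 68.0, 76.7 and 93.9 FPKM, and Slc16a3 differed by 0.05 (-0.34 to 0.43) and -0.02 (-0.39 to 0.36).

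The third comparison, LPS + G-CDs against control, shares its libraries with the other comparisons and is given for the values themselves. Hif1a and Slc2a1 remained above control when G-CDs were present, whereas Pfkfb3, Hk2 and Pfkp no longer differed past the threshold. Of the 11 rows 2 were higher, against 12.8% of all tested rows, and 1 was lower, against 12.4%. By the unadjusted rule with a change over 1.5-fold these were 2 and 0, beside 9.83% and 9.11%. Slc2a1 was at 233 ± 12.2 FPKM against 99.2 ± 6.49, a log2 difference of 1.22 ± 0.12 (limma adjusted p = 1.2e-04), and Hif1a at 38.0 ± 9.11 against 19.9 ± 3.12, a difference of 0.88 ± 0.19 (limma adjusted p = 0.0087). Under TPM scaling, which moved the median of all genes to -0.33, the Hif1a difference was 0.46 and no longer passed (adjusted p = 0.22).

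Pfkfb3 was then at 0.27 (-0.33 to 0.87, limma adjusted p = 0.51), Hk2 at 0.41 (-0.27 to 1.08, adjusted p = 0.37), Pfkp at 0.35 (-0.03 to 0.73, adjusted p = 0.17) and Slc16a3 at 0.42 (0.05 to 0.80, adjusted p = 0.098). Without LPS + G-CDs replicate 1 the Pfkfb3 difference was -0.018, and with 1 library left out the Hk2 difference ranged from 0.13 to 0.67. Pfkp passed without control replicate 1 (0.51, adjusted p = 0.039) and with the length trend removed (0.46, adjusted p = 0.027), and Slc16a3 without control replicate 3 (0.56, adjusted p = 0.039). These fits were the upper ends of the leave-out ranges, 0.19 to 0.51 for Pfkp and 0.32 to 0.56 for Slc16a3. That Pfkfb3 and Hk2 passed against control with LPS alone and not with LPS + G-CDs is not itself a difference between the groups with LPS, whose direct test is the one given above. The row called lower was the second Aldoa row, at 0.866, 0.753 and 0.178 FPKM. It had passed the filter only through its control libraries, so the call is not read as a result, and with no filter it was lost (limma adjusted p = 0.11).

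Within a family of enzymes or transporters the share of 1 member can be followed without the scaling between libraries, since it is a ratio inside each library. A trend on gene length inside a library is not removed by such a ratio. Hk2 made up 54.3%, 52.0% and 43.7% of the summed FPKM of Hk1, Hk2, Hk3 and Hkdc1 in the controls, 68.3%, 68.3% and 69.0% in LPS, and 64.5%, 60.2% and 50.2% in LPS + G-CDs. The LPS libraries exceeded all others. Hk1 accounted for most of the rest, at 36.7 to 48.4 FPKM in control and 40.4 to 45.2 in LPS.

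Pfkfb3 held 61.0%, 66.1% and 56.3% of the 4 PFKFB genes in control, 84.6%, 84.7% and 81.8% in LPS, and 78.2%, 72.9% and 65.2% in LPS + G-CDs. Here too the LPS libraries exceeded all others, and only LPS + G-CDs replicate 3 fell within the control range. Slc2a1 held 66.9% to 71.5% of 5 Slc2a genes in control, 82.7% to 84.1% in LPS and 82.9% to 85.5% in LPS + G-CDs, so that the libraries with LPS overlapped each other and lay above every control.

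Pfkp took 28.3%, 31.0% and 22.9% of the 3 phosphofructokinase genes in control and 39.2%, 40.0% and 36.5% in LPS. In LPS + G-CDs it took 40.8%, 33.8% and 29.1%, from above every LPS library to within the control range. Its partner Pfkm, the muscle-type subunit, dropped from 13.5, 9.39 and 9.48 FPKM to 2.99, 2.84 and 2.95, a log2 difference of -1.57 (limma adjusted p = 5.9e-05), and was at 4.10, 4.76 and 4.71 with G-CDs. Slc16a3 held 48.8% to 65.2% of 3 Slc16a genes in control and 60.8% to 63.7% in LPS, which overlap. Aldoa, Pkm and Ldha were almost alone in their families, at 96.0% or more, and Ldhb was listed at 0 in all libraries. The shares are given as a description, with no test.

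**Figure D3:**
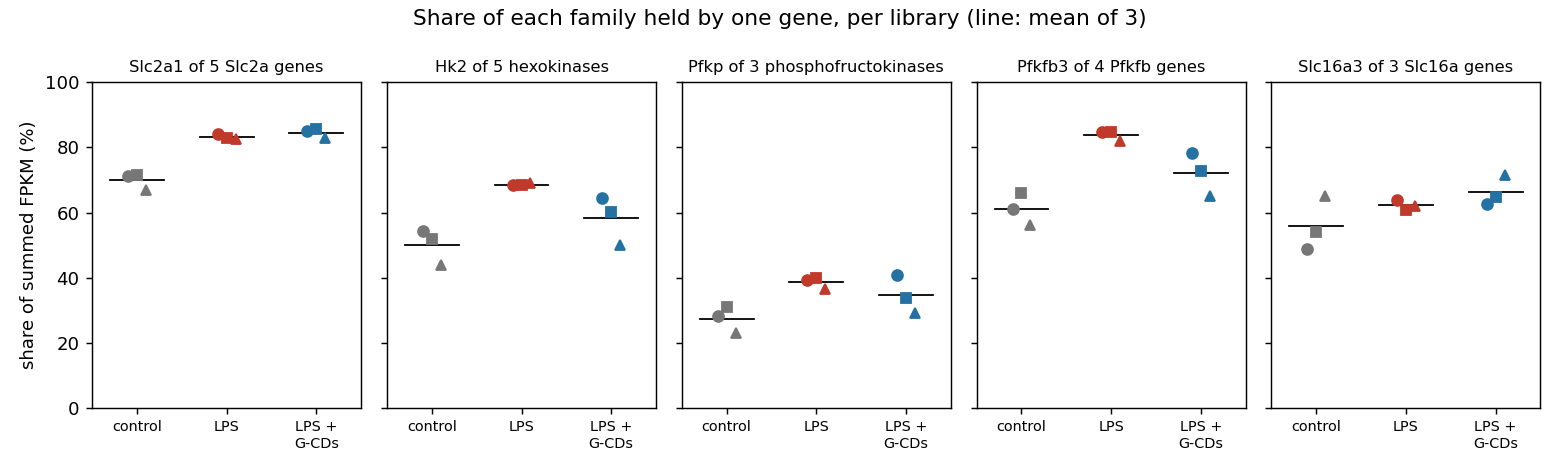
Share of the summed FPKM of a gene family (y axis, percent, 0 to 100) held by Slc2a1, Hk2, Pfkp, Pfkfb3 and Slc16a3 in each library; circles, squares and triangles are replicates 1, 2 and 3 and the line is the group mean. The Hk2 share is over Hk1, Hk2, Hk3 and Hkdc1, fewer genes than its panel title gives. The Hk2 and Pfkfb3 shares are highest in all 3 LPS libraries, and the Slc2a1 share lies between 82.7% and 85.5% in all 6 libraries with LPS.

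Libraries of 1 group were spread in opposite directions for different genes, in control and in LPS + G-CDs. Taken as deviations from the group mean on the log2 scale, LPS + G-CDs replicate 1 was the highest of its group for Pfkfb3 (0.57), Hk2 (0.44), Hif1a (0.31) and Pfkp (0.18), and replicate 3 was the lowest for these genes, at -0.50, -0.49, -0.39 and -0.11. For Ldha, Aldoa, Pkm, Pfkl and Slc16a3 the order was turned round, with replicate 3 highest at 0.37, 0.33, 0.27, 0.25 and 0.20. In control, replicate 3 was likewise lowest for Hk2 (-0.55), Pfkfb3 (-0.35) and Pfkp (-0.31) and highest for Aldoa (0.29), Slc16a3 (0.27) and Ldha (0.22), but neither for Hif1a, Pkm and Pfkl. In the LPS group the deviations of the 10 genes stayed between -0.18 and 0.13. Slc2a1 deviated little in any group.

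Gene length and base composition moved with the same libraries. Over all tested genes, the fifth with the shortest models had a median deviation of -0.26 in LPS + G-CDs replicate 1 and 0.30 in replicate 3, and the fifth with the longest models 0.26 and -0.26. Control replicate 3 stood at 0.17 for the shortest and -0.22 for the longest, and the LPS libraries lay between -0.028 and 0.018 for both. The fifth lowest in GC was at 0.091 and -0.13, and the highest at -0.13 and 0.15. With both trends removed from each library, an alternative added after the data had been seen, the deviations in replicates 1 and 3 were 0.40 and -0.34 for Pfkfb3, 0.36 and -0.42 for Hk2 and -0.25 and 0.25 for Ldha, while those of Pfkp became -0.19 and 0.23. In that fit the difference between LPS + G-CDs and LPS again missed the threshold for Pfkfb3 (adjusted p = 0.073) and Hk2 (adjusted p = 0.30). What made the libraries differ was not tested.

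**Figure D4:**
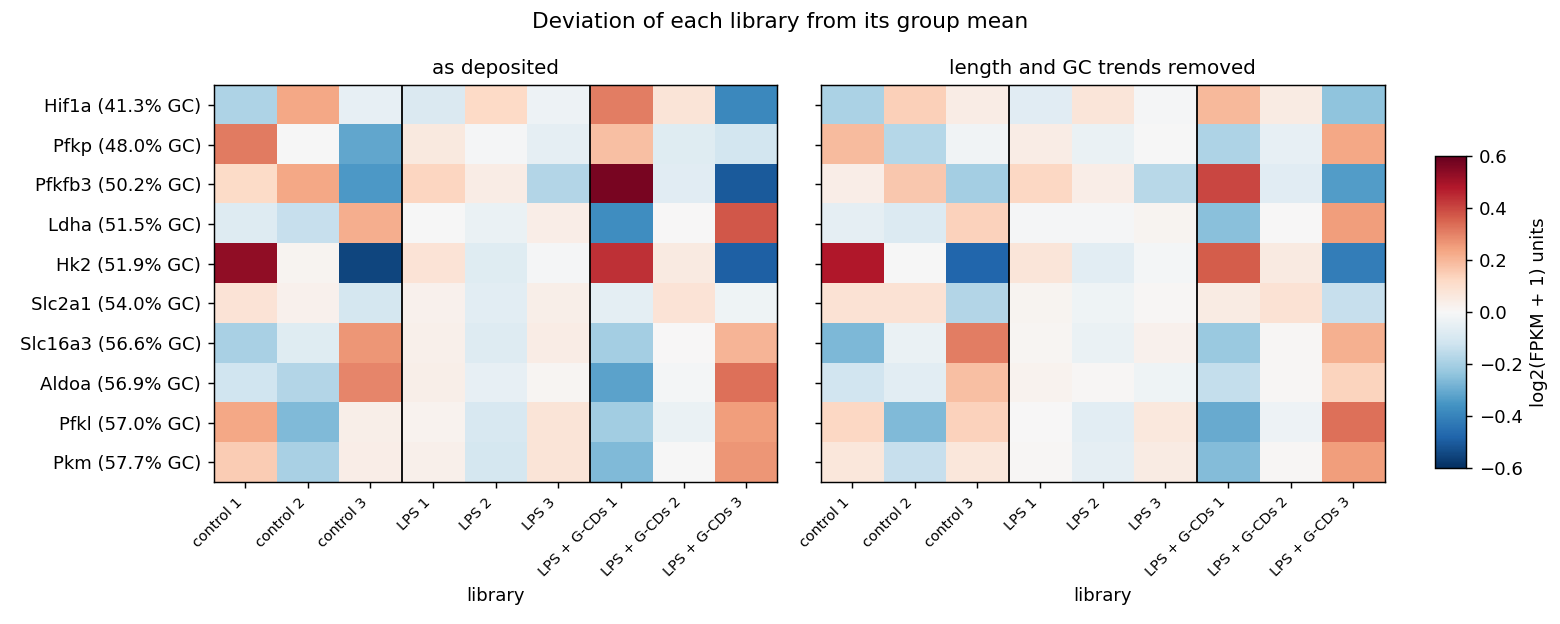
Deviation of each library (x axis) from its group mean in log2(FPKM + 1) units (colour, blue below and red above) for the 10 genes ordered by the GC content of their longest transcript (y axis), as deposited on the left and with length and GC trends removed on the right. Columns LPS + G-CDs 1 and 3 show opposite colours for Pfkfb3 and Hk2 against Ldha, Aldoa, Pkm and Pfkl in both panels, and Pfkp changes sides.

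Across the 9 libraries, Hif1a and Slc2a1 had a Pearson r of 0.90 on the log2 scale, Hk2 and Pfkfb3 of 0.92, and Ldha and Aldoa of 0.97. Pkm and Pfkfb3 ran opposite, at -0.86. Hk2 and Pfkp had an r of 0.94 that was 0.37 once the length trend was removed, while Hk2 and Pfkfb3 then stood at 0.90. These values describe 9 libraries that fall into 3 treatment groups and share their depth and length trends. Taken within groups, Hif1a and Slc2a1 had an r of -0.14 and Ldha and Aldoa of 0.98. The tested genes whose levels ran closest to Hif1a were Cpne8 (r = 0.993), Xrn2 (0.992) and Pnpt1 (0.991). Cpne8, for example, was at 8.14 to 10.5 FPKM in control, 19.1 to 21.7 in LPS and 14.3 to 21.0 in LPS + G-CDs.

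By level per length, the order in control was Pkm, Ldha, Aldoa, Slc16a3, Slc2a1, Pfkl, Hk2, Pfkp, Hif1a and Pfkfb3. In LPS, Slc2a1 at 248 ± 9.13 FPKM stood above Slc16a3 at 161 ± 7.41, and Hk2 at 121 ± 6.77 above Pfkl at 76.3 ± 4.69, so that both pairs had changed places. In control Slc16a3 and Slc2a1, at 119.5 ± 20.5 and 99.2 ± 6.49, overlapped in their libraries, as did the neighbours Ldha and Aldoa, Slc2a1 and Pfkl, Pfkl and Hk2, and Hk2 and Pfkp. In LPS no neighbouring pair overlapped. In LPS + G-CDs Hk2, at 79.3 ± 24.9, and Pfkl, at 79.5 ± 13.2, were not separated, and Ldha and Aldoa and Pfkp and Hif1a overlapped as well.

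Around these 10 genes stand the other genes of the same pathways. Of 31 further genes for glucose entry, the glycolytic steps and lactate exit, 24 were tested. With LPS 1 rose and 4 fell, beside 15.8% and 15.6% of all tested rows, and the median was -0.054 on the log2 scale beside 0.0165 over all genes. The 1 rise became 0 without control replicate 2 or 3, LPS replicate 1 or 2 or LPS + G-CDs replicate 2, 2 without LPS + G-CDs replicate 3 and 4 with length and GC trends removed. The riser was Tigar, a phosphatase that lowers fructose 2,6-bisphosphate, with 0.32 (limma adjusted p = 0.036), a call that voom did not make. Those that fell were Pfkm, the muscle enolase Eno3 (-1.08, adjusted p = 0.0087), the intracellular transporter Slc2a8 (-0.99, adjusted p = 0.0092) and Bpgm, the bisphosphoglycerate mutase (-0.57, adjusted p = 0.015). The abundant enzymes Pgk1, Pgam1 and Tpi1 differed by 0.14, 0.079 and -0.11 and did not pass, at adjusted p of 0.60 or more. Gapdh ranged from 14.5 to 119 FPKM in the controls alone, and 27.8% of the 50-base words of its longest transcript occur in other annotated genes, so its counts are uncertain.

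Against LPS, none of the 24 passed with G-CDs by limma or voom, 2 were higher at an unadjusted p under 0.05 (Pfkm and Bpgm) and 0 lower, beside 7.19% and 8.04% of all tested rows, and the median was 0.21 beside 0.0174. Pfkm was at 0.49 (0.16 to 0.82, limma adjusted p = 0.24) and Bpgm at 0.43 (0.11 to 0.75, adjusted p = 0.27), with no overlap of the groups. Against control 1 rose and 2 fell, beside 12.8% and 12.4% of all tested rows. They were the neuronal enolase Eno2 (0.49, limma adjusted p = 0.043), Pfkm (-1.08, adjusted p = 6.9e-04) and Eno3 (-0.78, adjusted p = 0.044). The rise became 0 without control replicate 2 or 3, LPS replicate 2 or any 1 LPS + G-CDs library, and with TPM or quantile scaling. The 2 falls became 1 without control replicate 1 or 2, any 1 LPS library or LPS + G-CDs replicate 2, 10 with TPM and 6 with quantile scaling. Of all 11585 tested rows, 3255 were lower with TPM and 1762 with quantile scaling.

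Of the 11 tested partners and regulators of HIF, out of 15, 1 rose and 1 fell with LPS, beside 15.8% and 15.6% of all tested rows, with a median of 0.13. Crebbp, which encodes a coactivator of HIF-1, went from 3.18, 5.59 and 2.96 FPKM to 8.02, 8.25 and 7.43, a log2 difference of 0.90 (limma adjusted p = 0.042). Egln1, which encodes the prolyl hydroxylase PHD2 that marks HIF-1α for degradation, went from 30.4, 19.8 and 22.6 to 15.2, 13.5 and 13.8, a difference of -0.71 (adjusted p = 0.012). The count of rises became 0 without control replicate 1 or 3, any 1 LPS library or LPS + G-CDs replicate 2, and with no filter or TPM scaling, and 2 without control replicate 2. The count of falls became 0 without LPS replicate 2 and 4 with TPM scaling. None of the 11 passed in the comparisons with LPS + G-CDs, by limma, where against control 12.8% and 12.4% of all tested rows did. At an unadjusted p under 0.05 there were 0 against LPS and 3 against control, 2 higher and 1 lower, beside 18.7% and 17.7% of all tested rows. Egln1 was below every control, at -0.53 (limma adjusted p = 0.051). Rises against control became 1 without control replicate 1. Falls became 1 without control replicate 2 or LPS + G-CDs replicate 3, and with TPM, median-of-ratios or quantile scaling. By voom 0 passed against LPS, beside 24 higher and 21 lower of all 11585 tested rows. Against control 1 passed by voom, which was lower, beside 1494 lower of all 11585. Arnt, the constitutive partner of HIF-1α, and Vhl, its ubiquitin ligase subunit, differed by 0.32 and 0.13 with LPS and did not pass, at adjusted p of 0.22 and 0.48.

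Other HIF targets went both ways. Their list shares Pfkfb4 with the further glycolysis genes, Pdk1 with the genes of pyruvate entry and Egln3, which was not tested, with the regulators. Of 22 tested, out of 24, 4 rose and 6 fell with LPS, beside 15.8% and 15.6% of all tested rows, and the median was -0.18. The 6 falls became 3 without control replicate 2 or 3 or LPS replicate 2 or 3, and the 4 rises became 1 with TPM and 2 with quantile scaling. The largest rises were the transferrin receptor gene Tfrc (1.25, limma adjusted p = 0.0021), the oxidase gene Ero1l (0.69, adjusted p = 0.0075) and P4ha1, a collagen prolyl hydroxylase subunit gene (0.65, adjusted p = 0.0017). The largest falls were Bhlhe40, a transcriptional repressor gene (-0.97, adjusted p = 5.1e-04), Ankrd37 (-0.97, adjusted p = 0.047) and Ndrg1 (-0.81, adjusted p = 9.0e-04). Tfrc was at 61.0, 60.8 and 44.8 FPKM in control, at 127 to 139 in the 3 LPS libraries and at 114, 93.0 and 65.7 in LPS + G-CDs, and the libraries with LPS lay above every control.

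With G-CDs none of the 22 passed against LPS by limma or voom, and 3 had an unadjusted p under 0.05, 2 higher and 1 lower, beside 7.19% and 8.04% of all tested rows. Adm, which encodes adrenomedullin, had the largest fitted difference, at 10.5, 9.62 and 6.76 FPKM in LPS and 17.3, 18.7 and 25.1 in LPS + G-CDs (1.11, limma adjusted p = 0.11), and was named after its value was seen. By the unadjusted p under 0.01 with a change over 1.5-fold it was called higher, as 1 of the 22, beside 1.24% of all tested rows. Against control 6 rose and 3 fell, beside 12.8% and 12.4% of all tested rows, and the 6 became 3 without control replicate 2, without control replicate 3 or without LPS + G-CDs replicate 2. TPM scaling, which moved the median of all genes to -0.33, turned the balance to 0 rises and 11 falls, and quantile scaling left 1 rise. Vegfa, the vascular growth factor gene (0.76, limma adjusted p = 0.0039), Ddit4, an mTORC1 inhibitor gene (0.76, adjusted p = 0.025), and Tfrc (0.68, adjusted p = 0.044) rose most, and Pdk1 (-0.92, adjusted p = 0.0062), Ndrg1 (-0.78, adjusted p = 0.0014) and Bhlhe40 (-0.70, adjusted p = 0.0039) fell most.

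Where glycolysis hands pyruvate to the mitochondria, 12 of 14 genes were tested, and 1 rose and 2 were called lower with LPS (median -0.15), beside 15.8% and 15.6% of all tested rows. TPM scaling gave 5 lower, and under it 3106 of all 11585 tested rows were lower, with a median of -0.21. Dld, the shared E3 subunit of the pyruvate dehydrogenase complex, was at 44.1, 45.3 and 46.9 FPKM in control and 69.8, 69.5 and 70.5 in LPS (0.61, limma adjusted p = 0.0032). Pdk1, a kinase that inhibits the complex and a known HIF target, fell to 7.63, 7.58 and 8.02 from 17.3, 14.6 and 11.2 (-0.79, adjusted p = 0.010). The other call was Pdp1, the opposing phosphatase, at 2.33, 2.41 and 2.01 FPKM in control and 0.482, 0.579 and 0.504 in LPS. It had passed the filter only through its control libraries, so its values are a description. None of the 12 passed between LPS + G-CDs and LPS by limma or voom, 2 were higher and 0 lower at an unadjusted p under 0.05, beside 7.19% and 8.04% of all tested rows, and against control the counts were again 1 and 2, for the genes Dld, Pdk1 and Pdp1, beside 12.8% and 12.4%. With TPM scaling the counts against control were 0 and 4, beside 755 higher and 3255 lower of all 11585 tested rows.

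**Figure D5:**
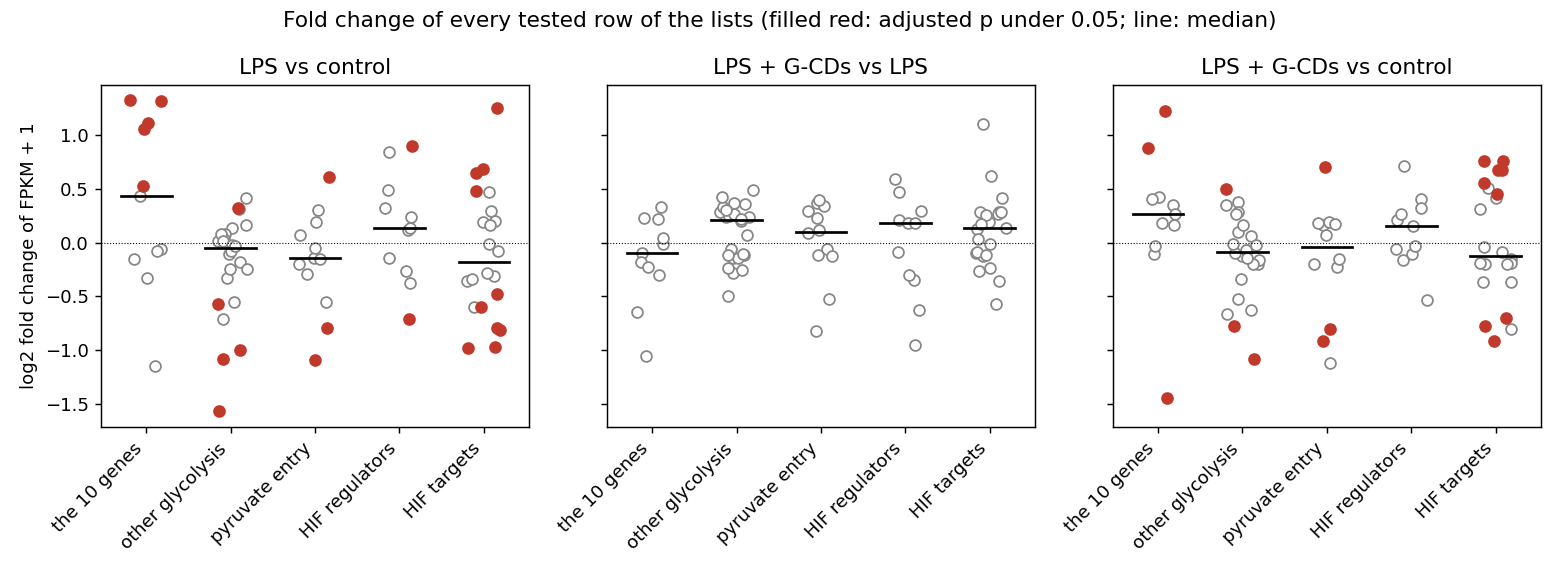
Log2 fold change of FPKM + 1 (y axis) of every tested row of the 10 genes and of the 4 pathway lists (x axis) in the 3 comparisons; red filled points passed a limma adjusted p of 0.05 and the line is the median of the list. In the panel of LPS + G-CDs against LPS no point is filled, and in that of LPS against control the 10 genes have the highest median, 0.44.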

How the data were processed

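Poly-A RNA of RAW264.7 cells was sequenced in 9 libraries of 3 groups. The authors deposited FPKM values per gene with gene coordinates and exonic lengths. The build is GRCm38 (mm10) per the submitters' processing notes, and the aligner, the counter and the use of strand are not given in the sources used here. All value columns were matched to samples by name, with 0 left over. FPKM times length was a whole multiple of 1 read (tolerance 0.05 reads) for 100.0% of values, and reads were recovered from it. The divisor behind FPKM, as a multiple of the reads on genes, differed between groups. It was 1.108, 1.14 and 1.119 in control, 0.929, 0.936 and 0.934 in LPS and 0.98, 0.96 and 0.88 in LPS + G-CDs. Fold changes against control therefore depend on this scaling, and no alternative used the reads on genes as the library size.

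Values were tested as log2(FPKM + 1), so that fold changes of low genes are understated, with limma 3.58.1 (R 4.3.3), with a mean-variance trend, in a model of 3 groups over all 9 libraries and for rows reaching 1 FPKM in 3 or more libraries. Tests were two-sided and p-values were adjusted by Benjamini-Hochberg over 11585 rows. Tables and figures were made in Python 3.11.15 with pandas 2.3.3 and matplotlib 3.10.9. The alternatives were a pseudocount of 0.1, no filter or a mean FPKM of at least 5, TPM, median-of-ratios and quantile scaling, only the 6 libraries compared, no variance trend, group-wise weights, voom on reads, removal of a length trend, a replicate block, each library left out, and a call at an unadjusted p under 0.01 and over 1.5-fold, the rule of the study for LPS + G-CDs against LPS. Removal of length and GC trends was added after the data had been seen, and 11566 of 11585 rows had a GC value.

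The 10 genes and the pathway lists were chosen with earlier results of these data known. One gene of each of 2 lists is not reported here. Named from each list were up to 3 of the largest rises and falls among called genes per comparison (all 4 falls of the further glycolysis genes in LPS are given), and for Hif1a the 3 genes with the highest r. All macrophage markers called with LPS are given as well. Genes named outside this rule, without a call, include Pgk1, Pgam1, Tpi1, Gapdh, Arnt, Vhl, Adm and several markers. Pfkm and Bpgm against LPS and Egln1 in LPS + G-CDs against control were also named without a call. Deviations of same-numbered libraries correlated at 0.103, 0.137 and 0.113 between LPS and control, all above 0.1, which pairs them by the limit used here, although the labels do not say what a number marks. Between LPS + G-CDs and LPS the values were 0.095, 0.080 and 0.143, and between LPS + G-CDs and control 0.280, 0.057 and 0.653, which do not. The replicate block was nevertheless fitted over all 9 libraries.

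The test was tried on simulated data for LPS + G-CDs against LPS on 11585 genes with 200 changed, and recovered 14.9% of 1.5-fold, 58.2% of 2-fold and 87.9% of 4-fold changes, with 6.96% of its calls on unchanged genes. The simulation drew genes independently, with the same spread of a gene in every group and no length trend. The measured groups differ in both, so these rates need not hold for them. Gene coordinates of the 10 genes equal those of GENCODE M21, as do 98.3% of all genes. Shared sequence was counted as 50-base words of a gene's longest transcript that occur, on either strand, in transcripts of another gene.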

Additional observations from a re-analysis of the deposited data

How the results depend on the processing

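Of 756 repeats of the single rows over the alternatives, 665 kept their direction and side of the threshold, 35 lost the call, 23 gained one and 33 reversed, and of 552 repeats of the list counts 85 moved by over 1.5 times. The 5 rows higher in LPS than in control became 3 with no filter, with TPM scaling and with quantile scaling, and 3 to 6 when 1 library was left out. The 0 lower rows became 2 with TPM scaling, 3 with quantile scaling, 1 with group-wise weights, 1 with the replicate block, and 0 to 1 when 1 library was left out. For LPS + G-CDs against LPS the 0 lower rows became 1, Pfkfb3, at p under 0.01 and over 1.5-fold, and 0 to 1 with 1 library left out. Against control the 2 higher rows became 1 with TPM scaling and 4 with length and GC trends removed. The 1 lower row became 0 with no filter, with a mean FPKM of at least 5, with only the 6 libraries, with group-wise weights, with voom, with length and GC trends removed and at p under 0.01 and over 1.5-fold, 3 with TPM and 4 with quantile scaling, and 0 to 1 with 1 library left out. A row count under a stricter filter falls in part because the second Aldoa row is then not tested. Among the 11 rows the replicate block changed no call beside those of Slc16a3 and the second Aldoa row in LPS against control, and of the list counts it moved by over 1.5 times that of further glycolysis genes lower in LPS + G-CDs than in control, from 2 to 4.

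Reversed values, in log2, were those of rows that had missed the threshold, and their cause was not tested. With the length trend removed they were 0.0096 for Ldha in LPS against control, 0.037 for Slc16a3 and 0.17 for Pfkp in LPS + G-CDs against LPS, and 0.045 for Pfkl against control. With length and GC trends removed they were 0.060 for Ldha, 0.092 for Aldoa and 0.021 for Pfkl in LPS against control, 0.0062 for Slc16a3 and 0.17 for Pfkp against LPS, and 0.080 for Pkm and 0.16 for Pfkl against control. TPM scaling moved the median of all genes to -0.21, -0.12 and -0.33 in the 3 comparisons and gave -0.12 for Pfkl against LPS. For LPS + G-CDs against control it gave -0.27 for Ldha, -0.25 for Aldoa, -0.014 for Slc16a3, -0.025 for Hk2, -0.079 for Pfkp and -0.14 for Pfkfb3, all above that comparison's median. Quantile scaling gave -0.078 for Pfkl against LPS, and -0.63 for Ldha and -0.56 for Aldoa against control, which then passed the threshold as lower (limma adjusted p = 0.0037 and 0.0048). With 1 library left out the ranges in LPS against control were -0.13 to 0.047 for Ldha, -0.23 to 1.8e-05 for Aldoa and -0.21 to 0.040 for Pfkl. Against LPS they were -0.12 to 0.086 for Slc16a3 and -0.077 to 0.15 for Pfkl. In LPS + G-CDs against control they were -0.24 to 0.028 for Pkm, -0.017 to 0.36 for Ldha, -0.16 to 0.088 for Pfkl and -0.018 to 0.52 for Pfkfb3. Depth limited the second Aldoa row, which was under 1 FPKM in 5 of the 6 libraries with LPS.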
